A study of Rattus norvegicus with 10 samples.

Results

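The carboxylesterase family of the rat distal colon epithelium was followed in 5 control rats and 5 rats fed sodium cholate. The genes named by the rule were the 10 carboxylesterases Ces1c, Ces1d, Ces1e, Ces1f, Ces2a, Ces2c, Ces2e, Ces2g, Ces2h and Ces2i, matched by symbol in a table of 23422 genes. Of these, 9 had a row, 8 had at least 1 read and 7 passed the filter on low counts. The expression of Ces1e was not analysed here. The family was put forward with the cholate-against-control difference in these same counts known. That difference is therefore given as a description for these genes: no p is printed for them, and whether a gene met a call rule under a given fit is stated without being read as evidence.

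All animals were male Wistar Munich rats kept singly in metabolic cages on the same standard chow. After 3 days of acclimatization, 6 of the 12 rats received the chow with 1% (w/w) sodium cholate, the salt of a primary bile acid, and the other 6 stayed on plain chow. Colons were taken after 10 days on the diets, and epithelial cells were shaken off the distal segment in a calcium-free buffer with EDTA. Poly(A) RNA of 5 rats per diet was sequenced, and these rats were the ones whose extracts had the highest RNA concentration, so they were not a random draw. Control rats are numbered 1, 2, 5, 6 and 9, and cholate rats 3, 4, 7, 8 and 11.

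Carboxylesterases are serine hydrolases, most of them held in the lumen of the endoplasmic reticulum, that cut carboxylic esters, amides and thioesters. In rodents they lie in tandem gene clusters. Enzymes of the Ces1 group are best known from liver, where they act on drugs, cholesteryl esters and triacylglycerol. Enzymes of the Ces2 group are typical of the intestinal epithelium, where they hydrolyse ester prodrugs and take part in acylglycerol breakdown.

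Library totals ranged from 14337356 counts (cholate rat 11) to 45285762 (cholate rat 4), and the limit that 0 reads allows, 3 counts, lay between 0.0616 and 0.228 CPM (counts per 1000000, on TMM-scaled library sizes) depending on the library. The first principal component, with 46.8% of the variance, set control rat 9 and cholate rats 8 and 11 apart (scores -57.0, -79.6 and -66.8), and put control rat 5 at -8.08, from the other 6 rats (26.7 to 46.4). Control rat 9 and cholate rats 8 and 11 also had the fewest counts (19883925, 18584910 and 14337356) and the lowest TMM factors (0.924, 0.860 and 0.919). The next smallest library had 25004778 counts, and the part of depth in this component was not tested. Log2 changes of the tested carboxylesterases, and the calls of the gene lists, are also given for those 6 rats (controls 1, 2 and 6, cholate 3, 4 and 7), a choice made after the data were seen. Epithelial markers summed to 13357 to 18579 CPM in control rats and 16188 to 24003 CPM in cholate rats. In the hepatocyte list, Alb and Fgb had no reads, and Tf made up 99.8% of the list's sum.

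The genes sat in 4 places of the rn6 assembly. Ces1f (chr19:15081117-15126629), Ces1d (chr19:15195514-15239827) and Ces1c (chr19:15294524-15335005) were neighbours on the plus strand, with 16, 16 and 13 exon blocks. Ces2g (chr19:37025379-37034611, 12 blocks) and Ces2h (chr19:37052555-37067176, 14 blocks) lay further along the same chromosome, also on the plus strand. Ces2a (chr19:59110-64378, minus strand) and Ces2e (chr19:85679-100386, plus strand) were near its start. Ces2i (chr1:282569926-282575202) and Ces2c (chr1:282640752-282648319) were on chromosome 1, both on the plus strand. None of the 9 genes overlapped another annotated gene. Ces2a is listed as a transcribed pseudogene in the newer RefSeq table. The rn6 annotation records that the RefSeq transcripts of Ces1c, Ces1d, Ces1f and Ces2c differ from the assembly by substitutions, and how this affected their counts was not tested.

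Promoter windows from RefSeq (build GRCr8, the 250 bases before the annotated start) were held for 8 of the 9 genes, all but Ces2a. Those of the Ces1 genes are shown because these 3 genes, all with lower means on cholate, share an arrangement of letters. They run from chr19:30099197-30099446 (Ces1c), chr19:30046244-30046493 (Ces1d) and chr19:29969383-29969632 (Ces1f), all on the plus strand, written 5′ to 3′ with AGATAA and GTAAACT in capitals.
Ces1c: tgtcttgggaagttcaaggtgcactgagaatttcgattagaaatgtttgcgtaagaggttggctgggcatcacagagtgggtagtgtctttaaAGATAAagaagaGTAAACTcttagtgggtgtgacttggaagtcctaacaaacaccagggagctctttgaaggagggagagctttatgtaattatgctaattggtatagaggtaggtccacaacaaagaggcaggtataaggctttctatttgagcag
Ces1d: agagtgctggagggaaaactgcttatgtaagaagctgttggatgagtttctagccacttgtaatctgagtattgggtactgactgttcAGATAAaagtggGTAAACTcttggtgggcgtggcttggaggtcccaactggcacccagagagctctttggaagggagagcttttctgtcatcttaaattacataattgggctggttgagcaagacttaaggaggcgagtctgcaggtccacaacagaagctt
Ces1f: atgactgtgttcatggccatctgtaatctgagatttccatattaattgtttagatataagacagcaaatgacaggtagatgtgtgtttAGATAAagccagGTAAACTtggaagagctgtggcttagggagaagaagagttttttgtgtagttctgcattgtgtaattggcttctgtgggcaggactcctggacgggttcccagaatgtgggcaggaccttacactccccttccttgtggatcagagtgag

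In all 3 windows AGATAA was followed, after 6 bases, by GTAAACT. The pair began 162 bases before the start in Ces1d and Ces1f and 157 bases before it in Ces1c. Both words were picked by reading these windows. On either strand, AGATAA alone was in 10.3% of the 33469 rat promoter windows of this length and GTAAACT alone in 1.85%. The pair with that gap was in 8 windows (0.0239%), 5 of them among the 20 carboxylesterase windows: Ces1c, Ces1d, Ces1e, Ces1f and Ces1dl1. Compared base by base without gaps, the Ces1d and Ces1dl1 windows were 88.0% identical, those of Ces1d and Ces1c 43.6%, and those of Ces1d and Ces1f 35.2%. Such a comparison misses letters that are alike but shifted, as the pair is between Ces1d and Ces1c. How far the 5 family matches are copies of 1 sequence was not tested, so they are not counted as independent.

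The Ces2 windows are shown for the contrast between genes with many reads and one with none. Ces2c (chr1:270376951-270377200), Ces2g (chr19:49856420-49856669) and Ces2h (chr19:49883914-49884163) are on the plus strand of GRCr8, and capitals mark the longest word found in at least 3 of the Ces2 windows.
Ces2c: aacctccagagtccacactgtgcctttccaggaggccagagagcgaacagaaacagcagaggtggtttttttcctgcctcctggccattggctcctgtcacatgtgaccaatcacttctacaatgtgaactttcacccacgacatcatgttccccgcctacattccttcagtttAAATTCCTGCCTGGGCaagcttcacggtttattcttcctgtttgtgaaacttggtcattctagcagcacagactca
Ces2g: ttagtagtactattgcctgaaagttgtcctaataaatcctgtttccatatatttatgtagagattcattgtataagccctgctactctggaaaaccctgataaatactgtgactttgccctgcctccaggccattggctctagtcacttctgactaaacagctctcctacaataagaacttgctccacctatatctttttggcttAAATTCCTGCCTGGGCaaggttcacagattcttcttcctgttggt
Ces2h: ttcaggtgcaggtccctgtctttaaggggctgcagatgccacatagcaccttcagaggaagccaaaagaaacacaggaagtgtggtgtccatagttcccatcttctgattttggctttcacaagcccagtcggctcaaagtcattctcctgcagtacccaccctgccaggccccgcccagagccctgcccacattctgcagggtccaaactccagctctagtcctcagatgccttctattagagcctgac

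That word, AAATTCCTGCCTGGGC, was in 5 of the 33469 windows (0.0149%) on either strand, and all 5 belonged to the Ces2 group: Ces2b, Ces2c, Ces2g, Ces2i and Ces2j. It was taken from the windows of Ces2c, Ces2g and Ces2i, so their matches were fixed in advance. How far the 5 matches are copies of 1 sequence was not tested, so they are not counted as independent. The word sat at different distances from the start. It began 45 bases before the start in Ces2g and 76 bases before it in Ces2c. The Ces2h window did not hold these letters. Of the 5 windows that did, those of Ces2i and Ces2j were 82.0% identical without gaps. TATAAA (12.9% of all windows) and AGGTCA (14.1%) were in none of the 8 windows. Word matches describe the letters of these windows and are not binding sites. Counts differed widely among genes with the 16-base word: Ces2g was among the most abundant of the family, Ces2i stayed under 1 CPM and Ces2c had no reads. Whether the lack of Ces2c reads comes from absent RNA or from mapping and counting was not tested.

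In control rats the level per length of coding sequence was led by 2 genes. The mean was 67.5 ± 42.7 CPM per kb for Ces1d and 37.0 ± 5.37 CPM per kb for Ces2g (SD, n = 5). Ces2a stood at 4.86 ± 1.30, Ces2h at 4.23 ± 0.304, Ces1c at 3.62 ± 1.08 and Ces1f at 1.77 ± 0.515 CPM per kb. Ces2i (0.396 ± 0.135 CPM per kb) and Ces2e (0.193 ± 0.339 CPM per kb) were the lowest genes with reads. In this order the control ranges of Ces2g and Ces2a did not overlap, nor did those of Ces1f and Ces2i. All other neighbours with reads overlapped, Ces1d with Ces2g among them, because control rat 2 held only 9.56 CPM per kb of Ces1d.

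The order was different in cholate rats. Ces2g led with 50.5 ± 10.3 CPM per kb, followed by Ces2h with 10.9 ± 3.68 and Ces1d with 7.02 ± 9.11 CPM per kb (SD, n = 5). Ces1c, at 0.352 ± 0.108 CPM per kb, moved from the fifth place to below Ces2i. In bulk RNA, fewer cells of a type and less RNA per cell cannot be told apart.

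**Figure D1:**
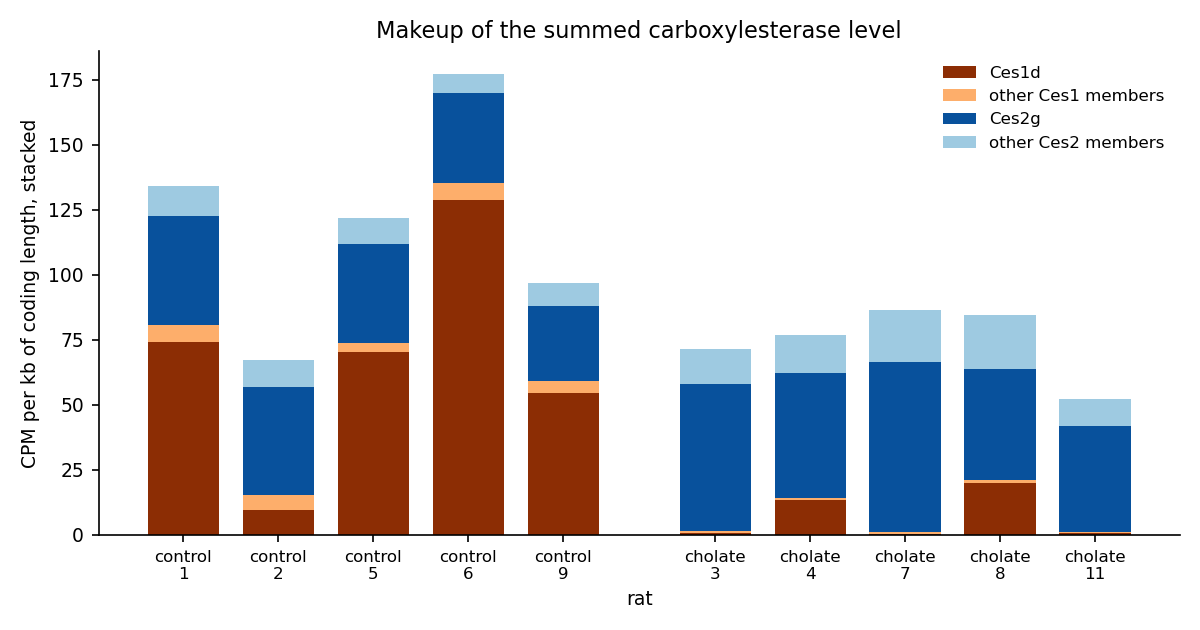
Stacked level of the 9 genes in each rat, in CPM per kb of coding length, split into Ces1d, the other Ces1 genes, Ces2g and the other Ces2 genes. Ces1d is the tallest segment in 4 of the 5 control rats, and Ces2g is the tallest in control rat 2 and in all 5 cholate rats.

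The 2 groups of genes made up different shares of the family's reads. Ces1 genes gave 56.8% ± 19.8 of the counts of the 9 genes in control rats, with a range of 23.4% to 76.7%, and 10.1% ± 11.3 in cholate rats, with a range of 1.25% to 25.4% (SD, n = 5 each). The ranges met only between control rat 2 and the highest cholate rat. Summed over the Ces1 genes the level was 123.4 ± 73.1 CPM in control and 13.4 ± 15.8 CPM in cholate rats. Summed over the Ces2 genes it was 76.7 ± 11.1 CPM in control and 110.4 ± 20.8 CPM in cholate rats. In the plot of stacked levels the Ces1 segments nearly vanish in cholate rats 3, 7 and 11 and stay visible in cholate rats 4 and 8.

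The diet comparison asked what dietary cholate does to gene expression in these cells. Across 12385 genes tested by the edgeR quasi-likelihood test, 1.1% were called higher and 2.12% were called lower on cholate, where a call needed an adjusted p under 0.01 and a log2 change over 1 in size. The 5 cholate rats all lay above the 5 control rats in 6.3% of the genes tested and all below them in 6.8%. Of the 7 carboxylesterases tested, Ces1c met the rule for a lower call and Ces2h that for a higher call. Ces1c and Ces1f had all cholate rats below all control rats, and Ces2h had them all above. Nothing is read from these counts, because the same comparison was in view when the family was chosen.

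**Figure D2:**
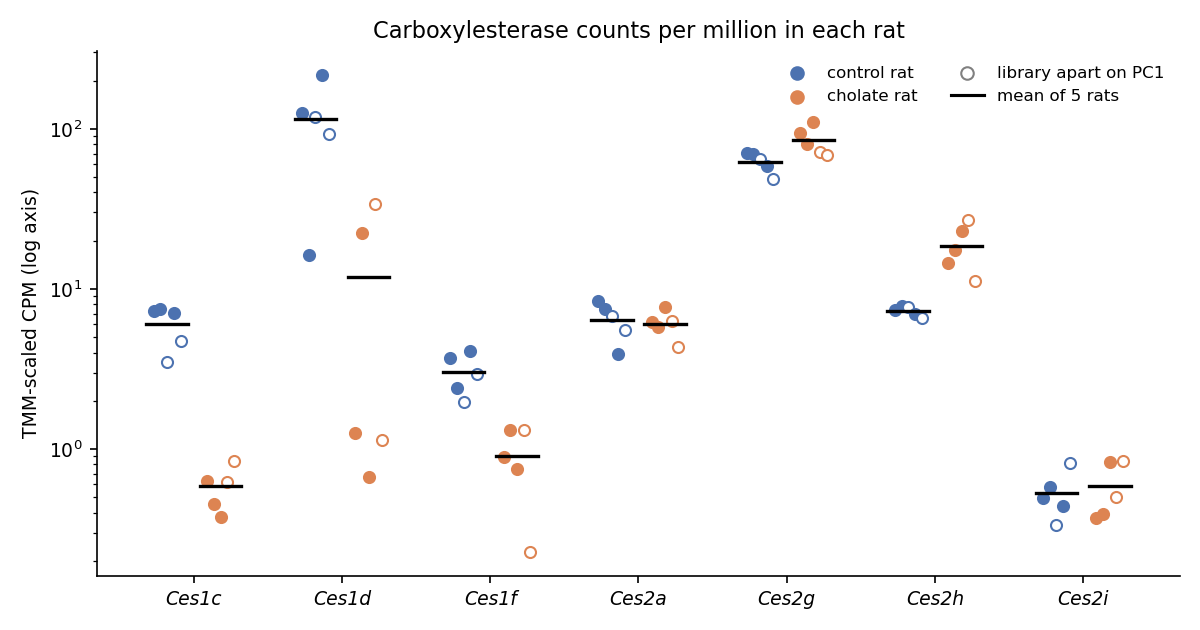
TMM-scaled CPM of the 7 tested genes in each rat on a log axis, with the mean of 5 rats as a black bar and open symbols for the 4 libraries apart on the first principal component. Ces1c and Ces1f are separated with cholate lower, Ces2h is separated with cholate higher, and Ces1d spreads from 16.2 to 218.0 CPM among control rats and from 0.669 to 34.0 CPM among cholate rats.

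Ces1c, whose product is the carboxylesterase that rodents secrete into plasma, had the cleanest separation among the Ces1 genes. It stood at 7.26, 7.47, 3.47, 7.06 and 4.74 CPM in control rats 1, 2, 5, 6 and 9. In cholate rats 3, 4, 7, 8 and 11 it stood at 0.628, 0.452, 0.375, 0.626 and 0.835 CPM. The lowest control rat was thus well above the highest cholate rat. The means were 6.0 ± 1.79 and 0.583 ± 0.179 CPM (SD, n = 5), a 10.3-fold difference resting on 840 and 74 reads, and the fitted log2 change was -3.40 (SE 0.32). In the 6 rats the log2 change was -3.89.

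Ces1d, a triacylglycerol hydrolase that in liver releases lipid for lipoprotein assembly, had the widest spread between rats. Control rats 1, 2, 5, 6 and 9 held 125.4, 16.2, 119.3, 218.0 and 92.7 CPM. Cholate rats 3, 4, 7, 8 and 11 held 1.26, 22.4, 0.669, 34.0 and 1.14 CPM. Of the cholate rats, 3 were near 1 CPM, and the other 2 lay above control rat 2, so the groups overlapped. The highest rat exceeded the lowest 13.5-fold within the controls and 50.8-fold within the cholate group. With means of 114.3 ± 72.4 and 11.9 ± 15.4 CPM (SD, n = 5), the log2 change was -3.27 with an SE of 1.10. It was -3.79 in the 6 rats.

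Ces1f, a close relative of Ces1d, was scarcer. It stood at 3.72, 2.41, 1.98, 4.10 and 2.94 CPM in control rats 1, 2, 5, 6 and 9 and at 0.886, 1.31, 0.750, 1.31 and 0.228 CPM in cholate rats 3, 4, 7, 8 and 11. The groups did not overlap, and the lowest cholate value came from the shallowest library. The means were 3.03 ± 0.883 and 0.899 ± 0.452 CPM (SD, n = 5) and the log2 change was -1.72 (SE 0.39). It did not meet the call rule in the quasi-likelihood fit, but did with DESeq2, the edgeR exact test, limma-voom with quality weights and in the 6 rats (log2 change -1.75).

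The summed CPM of several cell type marker lists differed between the diets beside these genes. Smooth muscle markers summed to 42.4 to 61.8 CPM in control rats and 8.17 to 13.5 CPM in cholate rats. Des, called lower, was 70.9% of the sum, and Myh11 (log2 change -0.86) was not called. Acta2, Actg2 and Tagln averaged 0.0131, 0.136 and 0.343 CPM in control and 0.158, 0.144 and 0.294 CPM in cholate rats, and were not tested. Differentiated colonocyte markers summed to 6227 to 8380 CPM in control rats and 11572 to 16719 CPM in cholate rats. Of the 10 markers, 3 were called higher: Krt20, Car1 and Car4. Aqp8, Slc26a3, Guca2a and Slc9a3 had log2 changes of 1.42, 0.95, 0.58 and 0.37 and were not called. Cdhr5, Muc3 and Ceacam1 had log2 changes of 0.06, 0.01 and -0.14. Enteroendocrine markers summed to 203.0 to 272.8 CPM in control rats and 276.0 to 522.5 CPM in cholate rats, with Gcg and Pyy called higher. The other markers of that list, Chga, Chgb and Neurod1, had log2 changes of -0.08, 0.02 and -0.02. Endothelial and blood markers summed to 12.7 to 26.9 CPM in control rats and 7.15 to 11.9 CPM in cholate rats, with Vwf called lower. The blood marker Hbb (log2 change -1.04) was 73.0% of the sum and was not called, nor was Pecam1 (log2 change -1.23). Cdh5 and Kdr averaged 0.0413 and 0.0683 CPM in control and 0.0870 and 0.0279 CPM in cholate rats, and were not tested. The sums of goblet markers overlapped widely, and 1 of the 7, Spink4, was called higher (log2 change 4.76, edgeR adjusted p = 0.00391). Adipocyte markers summed to 7.27 to 16.4 CPM and 10.7 to 21.8 CPM, with Lep, Plin4 and Retn at 0 reads. The part of these shifts in the carboxylesterase values was not tested.

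Among the Ces2 genes, Ces2g was the most abundant. It stood at 70.4, 69.3, 64.6, 58.1 and 48.5 CPM in control rats 1, 2, 5, 6 and 9. In cholate rats 3, 4, 7, 8 and 11 it stood at 94.7, 80.4, 110.0, 71.5 and 68.4 CPM. Only cholate rat 11 lay below the highest control rat, and in each diet the lowest rat was among the libraries apart on the first principal component. The means were 62.2 ± 9.03 and 85.0 ± 17.3 CPM (SD, n = 5) and the log2 change was 0.45 (SE 0.16). In the 6 rats the groups did not overlap, and the log2 change was 0.56.

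Ces2h, which follows Ces2g in the cluster with LOC102548129 between them, had the larger difference. Control rats 1, 2, 5, 6 and 9 were close together at 7.33, 7.78, 7.68, 6.95 and 6.53 CPM. Cholate rats 3, 4, 7, 8 and 11 were spread over 14.6, 17.4, 22.9, 26.9 and 11.2 CPM. All cholate rats exceeded all control rats, and the spread among cholate rats (SD 6.30 CPM) was wider than that among controls (SD 0.520 CPM). The means were 18.6 and 7.25 CPM (n = 5 each) and the log2 change was 1.36 (SE 0.23). It was 1.35 in the 6 rats. The gene no longer met the call rule when control rat 1, 2, 5 or 6 or cholate rat 4 or 7 was left out, or against a fold of 2 (glmTreat). As each rat was left out its log2 change kept between 1.21 and 1.48.

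The other Ces2 genes were similar in both diets or had few or no reads. Ces2a stood at 8.35, 7.47, 6.75, 3.94 and 5.55 CPM in control rats and 6.17, 5.79, 7.74, 6.32 and 4.33 CPM in cholate rats, in the same order of rats, with overlapping groups and a log2 change of -0.08 (SE 0.24). Ces2i ranged from 0.336 to 0.816 CPM in control rats and from 0.369 to 0.835 CPM in cholate rats, with a log2 change of 0.14 (SE 0.37). Ces2e, an enzyme known for hydrolysing pyrethroids, had 63 reads in all, 38 of them in control rat 1, and was not tested. Ces2c had no read in any of the 10 libraries.

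**Figure D3:**
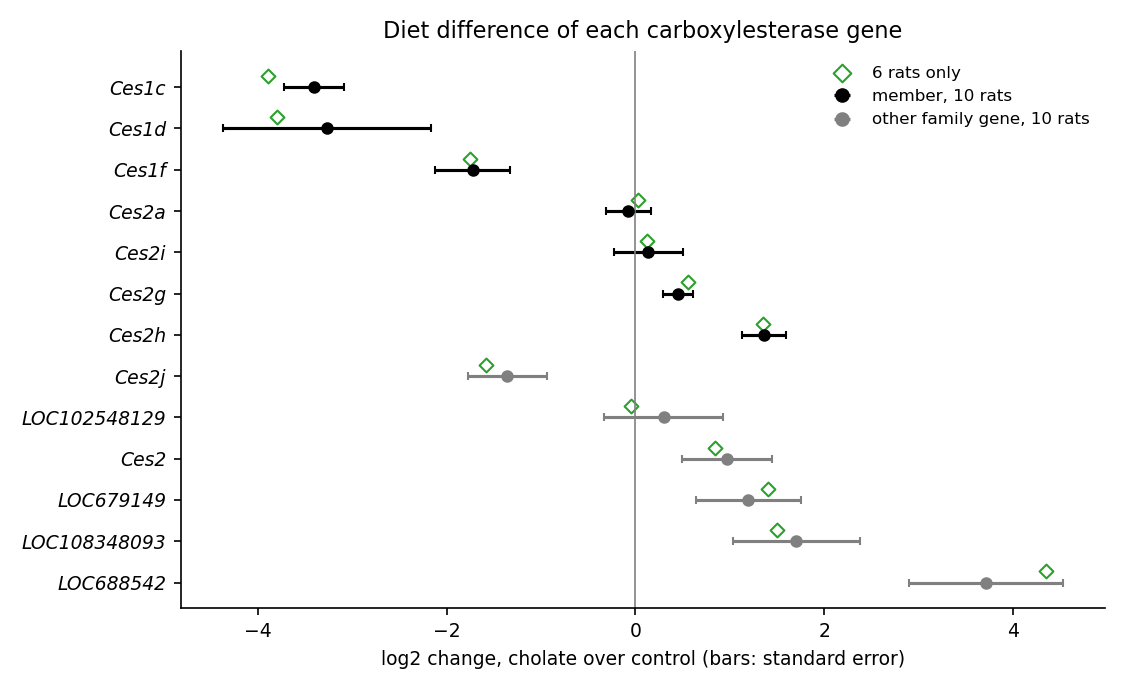
Log2 change of each carboxylesterase gene, cholate over control, with its standard error over 10 rats (circles, black for the named genes and grey for other family genes) and the value in 6 rats (open diamonds). The Ces1 genes lie between -3.40 and -1.72, the Ces2 genes named by the rule between -0.08 and 1.36, and LOC688542 lies furthest to the right at 3.71.

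The other carboxylesterase genes of the table were not used to choose the family, and their values come with the adjusted p of the fit across all genes. None of the 6 that averaged 1 CPM or more under 1 of the diets was called. LOC688542 (chr1:282714617-282733287, plus strand; product pyrethroid hydrolase Ces2e-like), in the same run of genes as Ces2c, overlaps LOC102551636 on the same strand, so their reads may be shared. It had 17, 0, 13, 0 and 7 reads in control rats 1, 2, 5, 6 and 9 and 53, 149, 246, 65 and 42 reads in cholate rats 3, 4, 7, 8 and 11. The groups did not overlap. The means were 0.292 ± 0.278 and 3.77 ± 1.74 CPM (SD, n = 5), and the log2 change was 3.71 (SE 0.81, edgeR adjusted p = 0.0138), or 4.35 in the 6 rats. It was called by DESeq2, the exact test and limma-voom, but not by the quasi-likelihood test at the 0.01 threshold. This gene and 3 others were recognised as carboxylesterases from the annotation after the data were seen.

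Ces2j (chr19:487723-495140) had a lower mean on cholate, unlike most Ces2 genes. It averaged 3.48 ± 1.62 CPM in control and 1.38 ± 0.621 CPM in cholate rats (SD, n = 5), with no overlap and a log2 change of -1.35 (SE 0.41, edgeR adjusted p = 0.0528), or -1.58 in the 6 rats. LOC679149, named Ces2b in the newer RefSeq table, averaged 12.9 ± 8.03 and 29.5 ± 9.91 CPM, with a log2 change of 1.20 (edgeR adjusted p = 0.183), or 1.41 in the 6 rats. LOC108348093 had a log2 change of 1.70 (edgeR adjusted p = 0.116), or 1.5 in the 6 rats, and Ces2 one of 0.96 (edgeR adjusted p = 0.209), or 0.85 in the 6 rats. LOC102548129, which lies between Ces2g and Ces2h, averaged 9.47 ± 6.37 and 11.7 ± 9.78 CPM, with a log2 change of 0.30 (edgeR adjusted p = 0.811), or -0.05 in the 6 rats.

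Single rats stood apart in several of these genes. Control rat 6 had the fewest reads of any control rat in LOC679149 (44), LOC108348093 (4) and, with control rat 2, LOC688542 (0), and the most in Ces2j (229). Reads of near-identical copies may have been divided between these genes, by a counting program not given in the sources used here. Ces5a and Ces1a had no reads, and Ces3a, Ces4a, LOC102557406 and Notum had 42, 88, 5 and 1 in all.

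Within a diet, the genes did not vary as 1 block. Over the 10 rats, with each diet's mean removed, log2 CPM of Ces1d and Ces1f had a Pearson r of 0.64 (Spearman rho 0.81), and r kept between 0.55 and 0.73 as each rat was left out. Ces2a and Ces2g had an r of 0.69 (rho 0.78, 0.60 to 0.85 as each rat was left out). In the 6 rats these values of r were 0.98 and 0.80. Values as large and negative were found in the same 6 rats: -0.89 for Ces1c and Ces2h, -0.83 for Ces1d and Ces2g, and -0.80 for Ces1f and Ces2g. Over the 10 rats these were -0.37, -0.47 and 0.13. Ces1c had an r of -0.11 over the 10 rats with each of Ces1d and Ces1f, although the 3 genes are neighbours and all had lower means on cholate. The r of Ces1c with Ces1f ran from -0.42 to 0.58 as each rat was left out. The r of 0.60 between Ces1f and Ces2h went to -0.02 without cholate rat 11. These are some of 15 pairs and a description with no test, and both values of a point come from 1 library and share its depth.

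**Figure D4:**
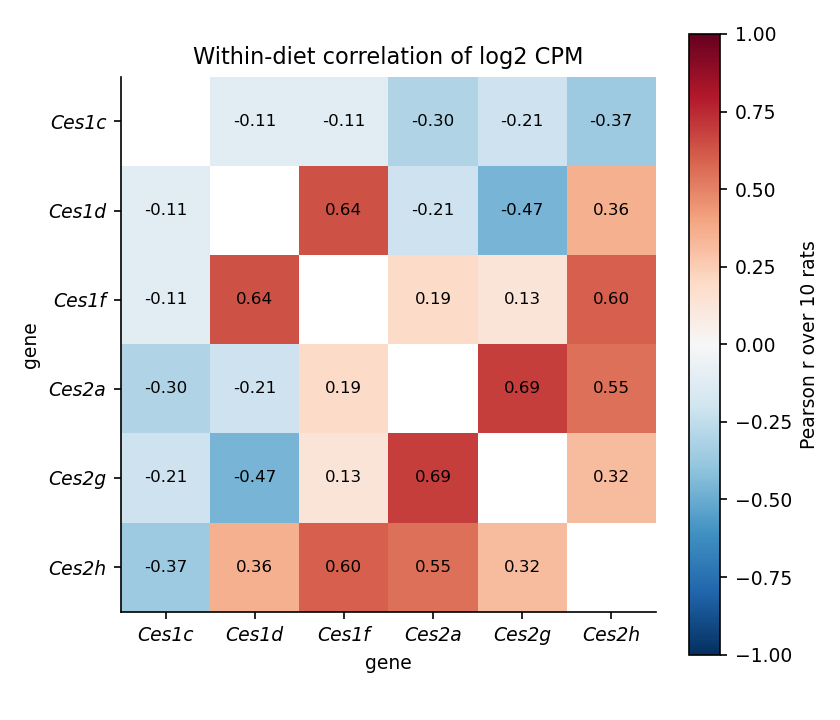
Pearson r of log2 CPM over 10 rats, diet means removed, for each pair of the 6 genes with a mean of at least 1 CPM. The highest values are 0.69 (Ces2a and Ces2g) and 0.64 (Ces1d and Ces1f), and the lowest is -0.47 (Ces1d and Ces2g).

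Of the 6 carboxylesterases with a mean of at least 1 CPM, Ces2g followed the first principal component most closely within diets, with an r of 0.79 (rho 0.72) over the 10 rats, while Ces1c (0.01) and Ces2h (0.05) followed it least. Among 9765 other genes with at least 5 CPM, those most like Ces2g within diets were Ccnt2 (r = 0.953), Nek4 (0.944), Lrif1 (0.940), Car12 (0.929) and Aim1 (0.926), over 10 rats. Their r with Ces2g in the 6 rats ran from 0.84 (Car12 and Aim1) to 0.94 (Ccnt2). Their own r with the first principal component ran from 0.69 (Nek4) to 0.91 (Car12). None of the 5 was called between the diets.

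Lists of genes that act near these enzymes were set beside all genes tested, of which 1.1% were called higher and 2.12% lower. With shares this small, the absence of calls in a short list is not read as a result. The median log2 change over all genes tested was -0.01. Of 23 tested neutral lipid and ester hydrolases outside the family none was called by the edgeR quasi-likelihood test, and the median was -0.32. An edgeR adjusted p under 0.05 was found in 4 of these 23 genes, against 1704 of all 12385 genes tested. DESeq2 called 1 of the 23 lower (Ache, acetylcholinesterase, named after its value was seen). Over the 6 rats 2 were called lower, Ache and Nceh1, a neutral cholesteryl ester hydrolase. Pon3, a lactonase of the paraoxonase family, had the smallest adjusted p: it averaged 120.9 ± 12.5 CPM in control and 70.1 ± 14.4 CPM in cholate rats (SD, n = 5; log2 change -0.79, edgeR adjusted p = 0.00966), and its log2 change was -0.85 in the 6 rats. It fell short of the rule only on the size of its change. Of 24 nuclear receptors and intestinal transcription factors none was called in 10 rats by edgeR or DESeq2. None of them had an edgeR adjusted p under 0.05, and the median was -0.14. In the 6 rats edgeR called 1 higher, Hnf4g, a hepatocyte nuclear factor, with a log2 change of 1.38 (adjusted p = 0.00414) against 1.25 (adjusted p = 0.396) in 10 rats. Vdr, the vitamin D receptor, which also binds a secondary bile acid, had the smallest adjusted p there (log2 change -0.99, edgeR adjusted p = 0.0514). Its log2 change in the 6 rats was -0.93 (edgeR adjusted p = 0.00367), short of the fold limit.

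Lipid handling beside ester hydrolysis included called genes. Of 26 genes of triacylglycerol synthesis and lipoprotein assembly, 3 were called higher and none lower, with a median of 0.34. Among all genes tested, 1.1% were called higher and 2.12% lower. In this list 7 of the 26 had an edgeR adjusted p under 0.05, against 1704 of all 12385 genes tested. DESeq2 called 5 higher, adding Apob and Apoa4. The 6 rats gave 4 higher (Apob, Apoa4, Dgat2 and Gpat3) and 1 lower (Apoc3). Dgat2, which makes triacylglycerol, rose from 4.66 ± 0.686 to 14.9 ± 3.80 CPM (SD, n = 5; log2 change 1.67, edgeR adjusted p = 0.00142), with a log2 change of 1.66 in the 6 rats. Fabp2, the intestinal fatty acid binding protein, rose from 18.1 ± 5.48 to 91.7 ± 45.8 CPM (log2 change 2.34, edgeR adjusted p = 0.00291), a call lost in the 6 rats and without control rat 2. Cideb, a lipid droplet and lipoprotein factor, had a log2 change of 1.36 (edgeR adjusted p = 0.00768), a call lost in the 6 rats and in 7 of the 10 fits with 1 rat left out. Against a fold of 2 (glmTreat), Dgat2 and Cideb were no longer called.

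Of 14 genes of retinyl ester storage and retinoid metabolism, 1 was called lower and none higher by the edgeR quasi-likelihood test in 10 rats, and the median was -0.05. In this list 6 of the 14 had an edgeR adjusted p under 0.05, against 1704 of all 12385 genes tested. DESeq2 called 4 lower and 1 higher, and the 6 rats gave 3 lower and 2 higher. Aldh1a1, which makes retinoic acid from retinal, fell from 257.5 ± 117.2 to 9.78 ± 5.44 CPM (SD, n = 5; log2 change -4.72, edgeR adjusted p = 0.000722), with a log2 change of -5.20 in the 6 rats. Of 11 genes for conjugation and export of the products of ester drugs, 1 was called higher and the median was 0.44. An edgeR adjusted p under 0.05 was found in 4 of these 11. DESeq2 also called Abcg2 higher. Sult2b1, a sulfotransferase of hydroxysteroids, rose from 38.7 ± 9.27 to 106.4 ± 12.8 CPM (SD, n = 5; log2 change 1.46, edgeR adjusted p = 0.00108), a call lost against a fold of 2 (glmTreat) and kept in the 6 rats (log2 change 1.79). Of 12 genes of the endoplasmic reticulum lumen and its retention system, where carboxylesterases reside, none was called in 10 rats by edgeR or DESeq2. In the 6 rats edgeR called 1 higher, the chaperone Hspa5, with a log2 change of 1.05 (adjusted p = 0.00774) against 0.60 (adjusted p = 0.229) in 10 rats. Genes given here for DESeq2 or the 6 rats alone were named after their values were seen. None of the 12 genes of the endoplasmic reticulum list had an edgeR adjusted p under 0.05 in 10 rats. All 12 log2 changes were positive, with a median of 0.30.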

How the data were processed

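Per the series design text and the submitters' processing notes, strand-specific poly(A) libraries were demultiplexed with bcl2fastq 1.8.4 and mapped to rn6 with BWA-MEM 0.7.12-r1039, an aligner that is not splice-aware. The counting step (program and strand setting) was not given in the sources used here. Raw counts per gene, as deposited, were used for every comparison. The authors' normalized signal (TMM, edgeR 3.16.2) was not used. Deposited gene lengths matched the summed coding length of the rn6 annotation in 100% of 23422 genes.

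Counts were analysed in R 4.3.3 with edgeR 4.0.16: filterByExpr by diet, TMM scaling, the robust quasi-likelihood F test over 12385 genes and Benjamini-Hochberg adjustment, called at an adjusted p under 0.01 and a log2 change over 1. CPM use TMM effective library sizes. Alternatives used DESeq2 1.42.0 and limma 3.58.1. Tested on simulated data of the cholate against control comparison with 12291 genes, the method found 69 of 100 genes changed by 1.5 and 94 of 100 changed by 2.5 (log2), with 1 false call. Correlations used log2 CPM with a prior count of 2.

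The carboxylesterases and the gene lists were chosen with earlier results of these data known. Named genes were the carboxylesterases with reads, other family genes with a mean of at least 1 CPM, up to 4 called genes per pathway list (or the one with the smallest adjusted p), and the 5 genes most like the most abundant member. Single-gene results for part of the lists are not reported here.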

Additional observations from a re-analysis of the deposited data

Results flagged for a closer look

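Ces2 in cholate rat 8 stood far from the other cholate rats, at 6.70 CPM against 2.25 to 3.51 CPM, a gap of 0.717 of the group's whole range. It was 1 of 40 groups examined for a distant highest or lowest rat, and chance sets about 1 in 20 such groups apart. Cholate rat 8 is among the libraries apart on the first principal component, and its part in this value was not tested.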

How the results depend on the processing

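The main count was 398 genes called. It was 242 when genes needed a mean of 5 CPM or more, 788 with DESeq2, 754 with the edgeR exact test, 1150 with limma-voom and quality weights, 137 with glmTreat against a fold of 2, 1704 at an adjusted p under 0.05 without a fold limit, and 1003 in the 6 rats. Leaving out 1 rat gave 168 (without control rat 2) to 450 (without control rat 9), and the counts under RLE, upper quartile and library-size scaling, no filter and limma-voom were within 1.5 times the main count. Of 455 values for 21 named genes, 414 kept direction and side of the threshold, 20 lost the call, 12 gained it and 9 changed sign. Genes not called in the main fit had no call to lose, so the 414 does not measure how stable the calls were. The losses were in Cideb (9 of 22 alternatives), Ces2h (7 of 22), Fabp2 (2 of 22), Dgat2 (1 of 22) and Sult2b1 (1 of 22). Ces1f, LOC688542 and Pon3 each gained a call under the looser rule without a fold limit. The sign changes were in Ces2a (0.087 with quality weights, 0.030 in the 6 rats, -0.21 to 0.037 as each rat was left out), Ces2i (-0.054 to 0.32 as each rat was left out) and LOC102548129 (-0.070 with quality weights, -0.049 in the 6 rats, -0.23 to 0.58 as each rat was left out), and the cause was not tested. No paired analysis was possible because the diets have no rat number in common. Ces2c and Ces2e sit at or near the floor of 3 counts in most libraries, and the part of depth, mapping or counting in this was not tested.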
